A study of Mus musculus with 375 samples.

Results

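Calcium cycling of the cardiomyocyte was followed through 10 genes, chosen by symbol, among the 21872 genes counted. The 10 genes encode the calcium pump of the sarcoplasmic reticulum and its small inhibitors (Atp2a2, Pln, Sln), the release channels and their partners (Ryr2, Itpr2, Trdn, Casq2), the calcium channel and the exchanger of the cell surface (Cacna1c, Slc8a1), and a calcium-activated kinase (Camk2d). All 10 passed the filter on low counts in every fit. In each heartbeat a small calcium current through the surface channel opens ryanodine receptors, which empty the sarcoplasmic reticulum into the cytosol and start contraction. The pump then refills the store under the brake of phospholamban, and the exchanger extrudes the remainder. In failing hearts this cycle is known to slow, and lower pump expression is a classical finding of pressure overload.

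Single cardiomyocytes of the left ventricle were sequenced by Smart-seq2 to ask how T cells act on the pressure-loaded heart muscle cell. All mice were C57BL/6N males, aged 8 weeks per the methods, and all had undergone transverse aortic constriction (TAC), which narrows the aorta, 2 weeks before collection. The WT group had no further change, the CD8-depleted group received an anti-CD8 antibody repeatedly from the day of the operation, and the CD3e-/- group lacked the epsilon chain of CD3 from the germline and with it mature T cells. Cells of sham-operated hearts were not analysed here, so no level below measures the response to TAC itself. Only rod-shaped living cells were picked, and libraries were screened by a qPCR threshold for Tnnt2. Of 375 cells, 320 were used, 121 WT, 111 CD8-depleted and 88 CD3e-/-, each group in 2 numbered sets. The methods describe cells of a pair of mice, but the labels do not tie a set to a mouse, so spread between sets may be technical. Sets are the replicates below (n = 2 per group), and cells were never used as replicates.

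The sets differed in depth and quality. CD3e-/- set 1 stood apart, with 11 of its 31 cells kept and 604652 counts of nuclear genes, against 49 to 77 cells and 5469742 to 24057660 counts in the other sets. The median cell spent 77.3% and 85.3% of its counts on mitochondrially encoded transcripts in WT sets and 90.8% to 94.1% in the other 4, and their part in any difference from WT was not tested. All 12 cardiomyocyte markers were read in every set and summed to 141330 to 203553 CPM in 5 sets, but to 63736 CPM in CD3e-/- set 1. CPM relate a count to all counts of nuclear genes in the set. Summed endothelial markers were at 263 to 350 CPM in WT sets, CD8-depleted set 1 and CD3e-/- set 2, at 1140 in CD8-depleted set 2 and at 1639 in CD3e-/- set 1, with all 8 of 8 read in every set. Summed fibroblast markers were at 132 and 27.0 CPM in WT sets, 105 and 377 in CD8-depleted sets, and 556 and 242 in CD3e-/- sets. Cd3e, the gene disrupted in CD3e-/- mice, was read 0 times in WT cells and 1 and 2 times per set in CD8-depleted cells. In the CD3e-/- sets it was read 4 and 37 times, so the counts by themselves do not bear out the label. Whether these reads came from a disrupted or an intact allele was not tested. Summed T cell markers were at 61.2 CPM in CD3e-/- set 1 and at 0 to 3.29 in the other sets. The libraries labelled CD3e-/- are named as labelled throughout.

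Promoter sequences were matched for 7 of the 10 genes in RefSeq (GRCm38.p6, the mm10 build of the counts), covering 250 bases before to 50 bases after the start site. Atp2a2, Sln and Trdn were not among them. The promoters of Pln and Itpr2 are shown because these genes lay at opposite ends of the level range and differed between the CD8-depleted and WT sets in opposite directions. Pln lies at chr10:53337436-53337735 on the plus strand and Itpr2 at chr6:146502174-146502473 on the minus strand. Capitals mark the TATA box (spelled TATAAA), the GC box (spelled GGGCGG) and the CCAAT box, searched on both strands.
Pln: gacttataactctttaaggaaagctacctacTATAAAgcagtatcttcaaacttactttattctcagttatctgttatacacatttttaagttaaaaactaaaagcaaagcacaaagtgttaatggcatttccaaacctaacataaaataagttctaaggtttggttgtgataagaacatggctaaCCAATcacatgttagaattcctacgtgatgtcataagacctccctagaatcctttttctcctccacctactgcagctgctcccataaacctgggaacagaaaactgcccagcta
Itpr2: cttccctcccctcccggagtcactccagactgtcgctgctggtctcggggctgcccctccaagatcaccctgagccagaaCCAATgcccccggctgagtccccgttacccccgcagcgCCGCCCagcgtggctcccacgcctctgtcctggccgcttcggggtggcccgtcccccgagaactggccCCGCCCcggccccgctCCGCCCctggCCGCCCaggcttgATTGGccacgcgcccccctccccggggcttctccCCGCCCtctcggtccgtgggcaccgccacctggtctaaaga
The Pln promoter was poor in G and C (36% of bases, 1 CpG) and held 1 TATA box, 1 CCAAT box and 0 GC boxes. The Itpr2 promoter was rich in G and C (73.3%, 26 CpG) and held 5 GC boxes, 2 CCAAT boxes and 0 TATA boxes. The median over 32851 mouse promoters was 52.7% and 7 CpG, and 5.45% were at least as GC-rich as that of Itpr2 and 4.98% at most as GC-rich as that of Pln. A TATA box occurred in 13.6% of all promoters, a GC box in 35.7% and a CCAAT box in 37.4%. Such matches describe letters anywhere in the window, whatever their distance from the start site, and do not show binding. The TATAAA of Pln lay near the outer end of the window, far before the start site.

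Transcript levels of the 10 genes ran from 0.0641 to 1907 CPM per kb. Per kb of deposited exon length, Pln led in all 6 sets, from 574 to 1907 CPM per kb, and Atp2a2 followed at 324 to 1646. Casq2 came next at 183 to 541 and lay below Atp2a2 in 5 of 6 sets, the exception being CD8-depleted set 2. Trdn (59.2 to 140) and Ryr2 (60.7 to 94.97) were neighbours, with Trdn higher in 5 of 6 sets. Slc8a1 followed at 8.92 to 20.8 CPM per kb. Camk2d (3.43 to 13.3) and Cacna1c (3.52 to 8.93) overlapped, with Camk2d higher in 5 of 6 sets. Itpr2 (0.191 to 5.36) and Sln (0.0641 to 3.76) were the lowest and exchanged places between sets. Pln ranked between 35 and 106 and Atp2a2 between 46 and 137 among all nuclear genes per kb, so both belonged to the most abundant transcripts of these cells. Exon length counts the exons of every isoform, which lowers the level per kb of genes with long alternative exons such as Cacna1c, Camk2d and Slc8a1.

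**Figure D1:**
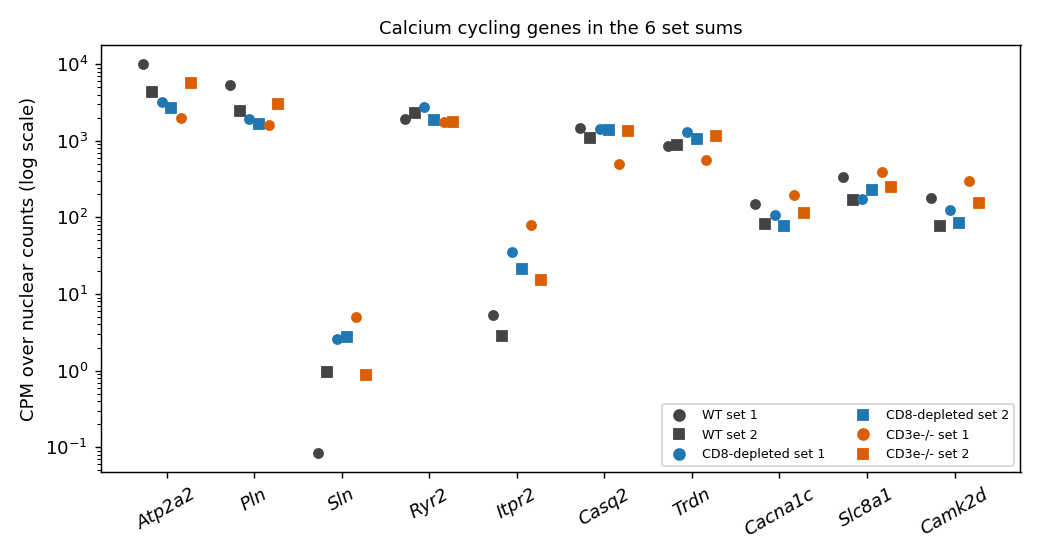
CPM over nuclear counts (log scale) of the 10 calcium cycling genes in the 6 set sums, 1 point per set, with colour for the group and marker shape for the set number. Itpr2 lay higher in all 4 sets of CD8-depleted and CD3e-/- hearts (15.3 to 79.4) than in WT sets (2.82 and 5.36), while Atp2a2 differed 2.34-fold between the WT sets alone.

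CD8-depleted cells were compared with WT cells to ask whether this machinery differs once CD8+ T cells are removed. No member passed the test in the edgeR fit of 6 sets, in which 0 of 12936 genes passed (percent called 0) and 341 had an unadjusted p under 0.05. Itpr2, Sln and Trdn lay higher in both CD8-depleted sets than in both WT sets, 3 of 10 members against 21% of all genes tested. Atp2a2 and Pln lay lower in both, 2 of 10 against 19.8%. Both shares were near the background. With CD3e-/- set 1 left out of the shared spread, the fit of 5 sets called 32 of 13374 genes (0.239%) and still 0 members, but 3 of 10 members, Itpr2, Atp2a2 and Pln, had an unadjusted p under 0.05 against 9.94% of all genes. The median log2 difference over the 10 members was -0.08 in that fit and -0.02 over all genes.

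CD3e-/- cells were compared with WT and with CD8-depleted cells in the same way. Again 0 members and 0 of 12936 genes passed in 6 sets (percent called 0 in both comparisons), with 1071 and 505 genes at an unadjusted p under 0.05. In 5 sets, where the lone CD3e-/- set was assumed to vary like the other groups, 17 genes (0.127%) passed against WT and 2 (0.015%) against CD8-depleted, none of them a member. Against WT, 1 of 10 members (Itpr2) lay higher in both CD3e-/- sets and 1 (Ryr2) lower, beside 28% and 8.7% of all genes. Against CD8-depleted, Cacna1c, Slc8a1 and Camk2d lay higher in both sets and Ryr2 and Casq2 lower, 3 and 2 of 10 beside 26.4% and 7.91%. With CD3e-/- set 2 left out instead, so that the 11 cells of set 1 stood for the group, 4588 of 13837 genes (33.2%) passed against WT, among them 6 members, and 3472 (25.1%) against CD8-depleted, among them 4 members. Against WT these were Itpr2 at 3.12 and Atp2a2, Casq2, Pln, Trdn and Ryr2 at log2 differences of -2.99, -2.54, -2.42, -1.85 and -1.496, and against CD8-depleted Casq2, Trdn, Atp2a2 and Ryr2 at -2.68, -2.29, -1.77 and -1.59. The comparisons with WT share the WT sets, so they are not independent of each other. In the fits, TMM factors rescaled the sets, by 1.85 for CD3e-/- set 1 and by 0.762 to 0.980 for the others. Without them the median log2 difference of all genes was 0.63 for CD3e-/- against WT and 0.69 against CD8-depleted, instead of 0.01 and 0.07, and 0.00 for CD8-depleted against WT.

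**Figure D2:**
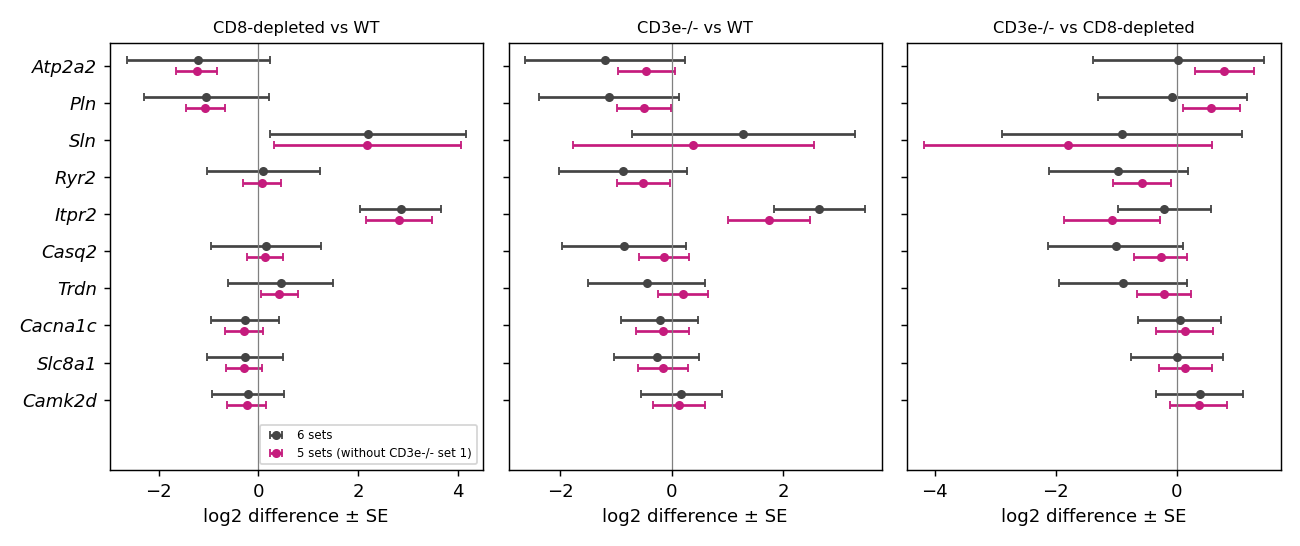
Log2 differences (points) with their SE (bars) of the 10 genes from edgeR in the 3 comparisons, over all 6 sets and over 5 sets without CD3e-/- set 1. In the comparison of CD8-depleted with WT the largest difference on both fits was that of Itpr2 (2.85 and 2.82), and the SE of Atp2a2 shrank from 1.43 to 0.41.

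The pump and its main inhibitor lay in the same order of sets. Atp2a2 (chromosome 5, 122453513 to 122502225, minus strand, mm10) encodes SERCA2, the pump that returns calcium to the sarcoplasmic reticulum. Its level was 10009 and 4279 CPM in WT sets, 3209 and 2652 in CD8-depleted sets, and 1973 and 5753 in CD3e-/- sets. Both CD8-depleted sets thus lay under both WT sets, whereas the CD3e-/- sets lay on either side of WT set 2. Group means were 7144 ± 4052 CPM for WT, 2931 ± 394 for CD8-depleted and 3863 ± 2673 for CD3e-/- (SD, n = 2). The log2 difference of CD8-depleted from WT was -1.21 (SE 1.43, adjusted p = 1, edgeR) over 6 sets and -1.24 (SE 0.41, adjusted p = 0.24) over 5. From WT to CD3e-/- it was -1.19 (SE 1.43, adjusted p = 0.834) and -0.45 (SE 0.50, adjusted p = 1). Without CD3e-/- set 2, so that the 11 cells of set 1 stood for the group, it was -2.99 (adjusted p = 0.000716). Neither difference passed the test over 6 or 5 sets, and the WT sets differed from each other by 2.34-fold.

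Pln (chromosome 10, 53337667 to 53345987, plus strand) encodes phospholamban, which holds the pump back until it is phosphorylated. Pln stood at 5260 and 2444 CPM in WT sets, 1911 and 1655 in CD8-depleted sets, and 1584 and 3019 in CD3e-/- sets. The order of the sets was that of Atp2a2, with WT set 1 highest, CD3e-/- set 2 next and CD3e-/- set 1 lowest. Relative to WT, Pln differed by -1.04 log2 units in CD8-depleted cells (SE 1.25, adjusted p = 1, edgeR) over 6 sets and by -1.07 (SE 0.39, adjusted p = 0.3) over 5. In CD3e-/- cells the values were -1.12 (SE 1.25, adjusted p = 0.828) and -0.50 (SE 0.48, adjusted p = 1). Exons of Pln share 141 bases with Cep85l on the opposite strand, and Smart-seq2 reads carry no strand, so reads in that stretch cannot be told apart.

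Because pump and inhibitor act as a pair, their ratio was taken per set. Per kb, Pln to Atp2a2 was 1.16 and 1.26 in WT, 1.31 and 1.38 in CD8-depleted, and 1.77 and 1.16 in CD3e-/- sets. The CD8-depleted ratios lay above both WT ratios by a mean of 0.135, for which an exact permutation test over sets gave a two-sided p of 0.333, the smallest that 2 sets against 2 allow (adjusted p = 1 over 6 comparisons of 2 ratios). For CD3e-/- against WT the mean difference was 0.255 (exact p = 1), and it turned to -0.0518 without CD3e-/- set 1. In single cells the median ratio was 1.15 in both WT sets, 1.36 and 1.31 in CD8-depleted sets, and 1.51 and 1.22 in CD3e-/- sets. The ratio exceeded 1 in 66.1% to 77.4% of cells of every set. Ratios of single cells ran from 0.555 to 2.30 in WT sets, 0.567 to 5.18 in CD8-depleted sets and 0.588 to 5.04 in CD3e-/- sets, so cells of the groups overlapped.

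**Figure D3:**
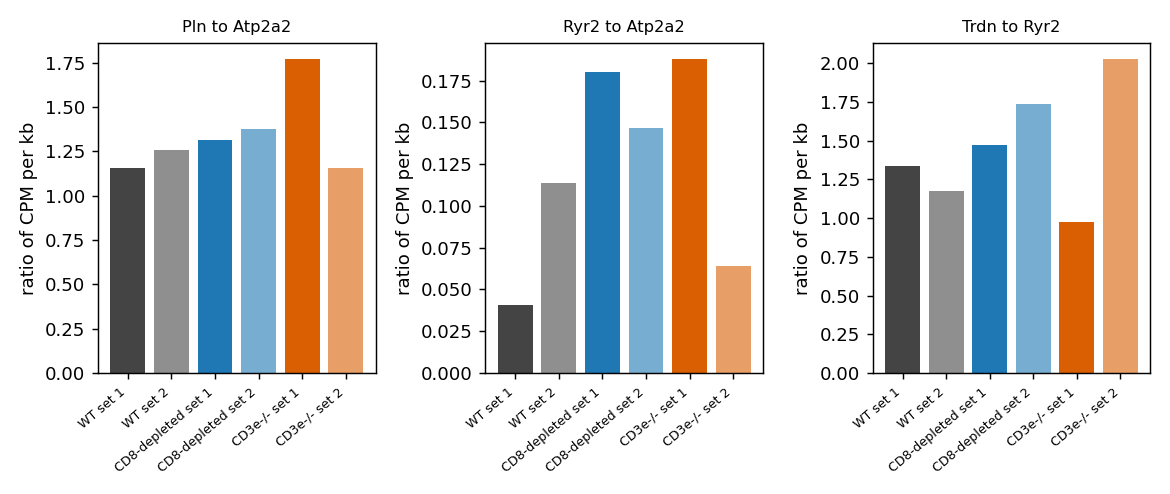
Ratios of CPM per kb in each set sum, 1 bar per set, for Pln to Atp2a2, Ryr2 to Atp2a2 and Trdn to Ryr2. Pln to Atp2a2 stayed within 1.16 to 1.38 in 5 sets and reached 1.77 in CD3e-/- set 1, while Ryr2 to Atp2a2 ran from 0.0409 to 0.188.

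Sln (chromosome 9, 53850164 to 53854560, plus strand) encodes sarcolipin, a second pump inhibitor that in mouse is typical of atrial muscle. Sln was nearly silent, with 2 and 20 counts in WT sets, 20 and 15 in CD8-depleted sets, and 3 and 21 in CD3e-/- sets. As CPM this was 0.0844 and 0.974, 2.62 and 2.74, and 4.96 and 0.873. A read was found in 1, 1, 2, 4, 1 and 4 cells of the 6 sets, and the highest cell alone held 40% to 100% of a set's counts. Sln to Pln per kb averaged 0.000434 in WT and 0.00317 in CD8-depleted sets (exact permutation p = 0.333, two-sided, the smallest possible). The log2 difference from WT was 2.19 (SE 1.96, adjusted p = 1, edgeR) in CD8-depleted and 1.28 (SE 2.00, adjusted p = 0.86) in CD3e-/- cells. Leaving out WT set 1 or WT set 2 moved the first to 1.26 or 5.003 and the second to 0.24 or 4.05, and thinning moved the first to 0.63. Other atrial markers were low too, with Myl7 at 0 to 10.6 CPM, Dkk3 at 0 to 2.74, Kcna5 at 0.785 to 19.9 and Bmp10 at 0 in 5 sets. Myl4 was also low, but at 0.211 and 0.828 CPM in WT and 1.96 to 16.6 in the other sets. Nppa, an atrial gene that loaded ventricles re-express, was at 279 and 342 CPM in WT and 2434 to 6505 in the other sets.

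In the fits of 6 and of 5 sets, Itpr2 had the largest difference from WT of the 10 genes in both other groups. Sln exceeded it without WT set 2, at 5.003 against 2.58 in CD8-depleted and 4.05 against 2.31 in CD3e-/- cells, and without the highest cell of each gene, which left Sln with 0 counts in WT. Itpr2 (chromosome 6, 146108299 to 146502223, minus strand) encodes the type 2 inositol trisphosphate receptor, a release channel of heart muscle that opens on hormone signals rather than with each beat. Its level was 5.36 and 2.82 CPM in WT sets, 35.1 and 21.4 in CD8-depleted sets, and 79.4 and 15.3 in CD3e-/- sets, from 48 to 369 counts per set. All 4 sets labelled CD8-depleted or CD3e-/- thus lay above both WT sets, and the highest value came from the shallow CD3e-/- set 1. Group means were 4.09 ± 1.79 CPM in WT, 28.2 ± 9.67 in CD8-depleted and 47.4 ± 45.3 in CD3e-/- (SD, n = 2). Against WT, CD8-depleted cells differed by 2.85 log2 units (7.20-fold, SE 0.81, unadjusted p = 0.00502, adjusted p = 1, edgeR), which did not pass. Over 5 sets the difference was 2.82 (SE 0.67, unadjusted p = 0.000179, adjusted p = 0.0599), just outside the threshold of 0.05. It passed with DESeq2 on those 5 sets (adjusted p = 0.00157, where 1.17% of genes passed) and when the highest cell of every gene was dropped from each set (0.0287, where 0.256% passed) or CD3e-/- set 2 left out (0.0381, where 0.34% passed), but not with thinned cells (0.178), with cells weighted alike (0.563) or with the 4 sets of the 2 groups alone (0.329). Over all alternatives tried its log2 difference ran from 1.80 to 3.19 and its adjusted p from 0.00157 to 1.

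CD3e-/- cells differed from WT in Itpr2 by 2.64 log2 units (6.24-fold, SE 0.81, unadjusted p = 0.00789, adjusted p = 0.529, edgeR) over 6 sets. Without CD3e-/- set 1 the difference was 1.74 (3.35-fold, SE 0.73, unadjusted p = 0.0234, adjusted p = 1). DESeq2 over 6 sets called it at 2.86 (adjusted p = 0.0311, where 4.72% of genes passed) and over 5 sets did not (1.75, adjusted p = 1). In CD3e-/- set 1 other channel genes that were close to silent elsewhere were read as well, among them Ryr1 at 46.3 CPM (0 to 3.84 in the other sets), Ryr3 at 67.8 (0.125 to 4.205), Itpr3 at 31.4 (0.0974 to 1.39) and Cacnb3 at 92.6 (0 to 1.66). The 4 genes were chosen after their values were seen, and the part of this background in the Itpr2 value of the set was not tested. CD3e-/- and CD8-depleted cells differed by -0.21 (SE 0.77, adjusted p = 0.976) over 6 sets.

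More cells held an Itpr2 read outside WT. It was detected in 16 of 59 and 18 of 62 WT cells, or 27.1% (95% exact binomial interval 16.4 to 40.3) and 29.03% (18.2 to 41.9). In CD8-depleted sets the share was 53.2% (40.1 to 66.02) and 53.1% (38.3 to 67.5), and in CD3e-/- sets 54.5% (23.4 to 83.3) and 55.8% (44.1 to 67.2). The WT cells were sequenced most deeply in nuclear counts, at medians of 413073 and 242696 per cell against 40699 to 223873 elsewhere. With every cell thinned to 50000 nuclear counts and shallower cells left out, the shares were 15.3% and 14.5% in WT (59 and 62 cells), 43.9% and 43.5% in CD8-depleted (57 and 46 cells) and 75% and 36% in CD3e-/- sets (4 and 75 cells). The intervals cover counting error only. No set rested on a single cell, since the highest cell held 8.94% to 29.2% of the Itpr2 counts of its set.

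**Figure D4:**
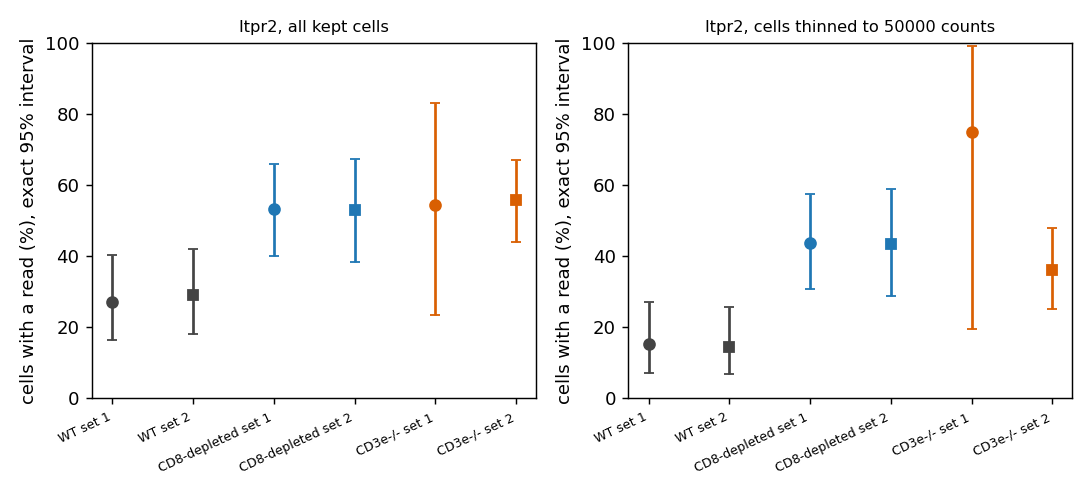
Share of cells with at least 1 Itpr2 read in each set, with exact 95% binomial intervals, in all kept cells (left) and after thinning each cell to 50000 nuclear counts (right). Thinning lowered the WT shares from 27.1% and 29.03% to 15.3% and 14.5%, the CD8-depleted shares from 53.2% and 53.1% to 43.9% and 43.5%, and that of CD3e-/- set 2 from 55.8% to 36%.

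Cells carrying little RNA of other cell types were looked at separately, since other cell types of the heart also express inositol trisphosphate receptors. Among cells at or below the median of 363 CPM summed over 40 markers of fibroblasts, endothelium, mural cells, macrophages and T cells, Itpr2 was at 5.57 and 2.05 CPM in WT sets, 22.7 and 24.8 in CD8-depleted sets and 12.0 in CD3e-/- set 2. CD3e-/- set 1 had 0 cells in that range. Above the median it was at 5.04 and 4.36, 51.4 and 20.6, and 79.4 and 27.5 CPM. In the lower range CD8-depleted set 2 had 8 cells. This split was chosen after seeing the data, and the part of other cell types in the Itpr2 difference was not tested.

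The main release channel and its partners did not pass the test in the fits of 6 or 5 sets. Ryr2 (chromosome 13, 11553102 to 12106945, minus strand) encodes the cardiac ryanodine receptor. Its level was 1938 and 2305 CPM in WT, 2734 and 1838 in CD8-depleted, and 1755 and 1748 in CD3e-/- sets. The CD8-depleted sets enclosed the WT sets, and the CD3e-/- sets lay just under both of them. The log2 difference from WT was 0.10 (SE 1.14, adjusted p = 1, edgeR) for CD8-depleted and -0.87 (SE 1.15, adjusted p = 0.845) for CD3e-/-, or 0.07 (SE 0.38, adjusted p = 0.973) and -0.51 (SE 0.48, adjusted p = 1) over 5 sets. Ryr2 to Atp2a2 per kb was 0.0409 and 0.114 in WT, 0.180 and 0.146 in CD8-depleted, and 0.188 and 0.0642 in CD3e-/- sets, a ratio chosen after its values were seen and not tested.

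Trdn (chromosome 10, 33080554 to 33476709, plus strand) encodes triadin, which anchors calsequestrin to the ryanodine receptor. Trdn was read at 843 and 880 CPM in WT, 1308 and 1038 in CD8-depleted, and 554 and 1151 in CD3e-/- sets. The WT sets were close to each other, at 862 ± 25.98 CPM (SD, n = 2), and both CD8-depleted sets lay above them at 1173 ± 191. The difference was 0.44 log2 units (SE 1.05, adjusted p = 1, edgeR) over 6 sets and 0.42 (SE 0.36, adjusted p = 0.729) over 5, and neither passed. Casq2 (chromosome 3, 102086415 to 102146514, plus strand) encodes calsequestrin 2, the calcium buffer of the store. Casq2 stood at 1479 and 1085 CPM in WT, 1415 and 1383 in CD8-depleted, and 499 and 1321 in CD3e-/- sets. Only CD3e-/- set 1 left the range of 1085 to 1479 CPM held by the other 5. The log2 difference of CD3e-/- from WT was accordingly -0.86 (SE 1.11, adjusted p = 0.845, edgeR) over 6 sets and -0.14 (SE 0.44, adjusted p = 1) over 5.

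**Figure D5:**
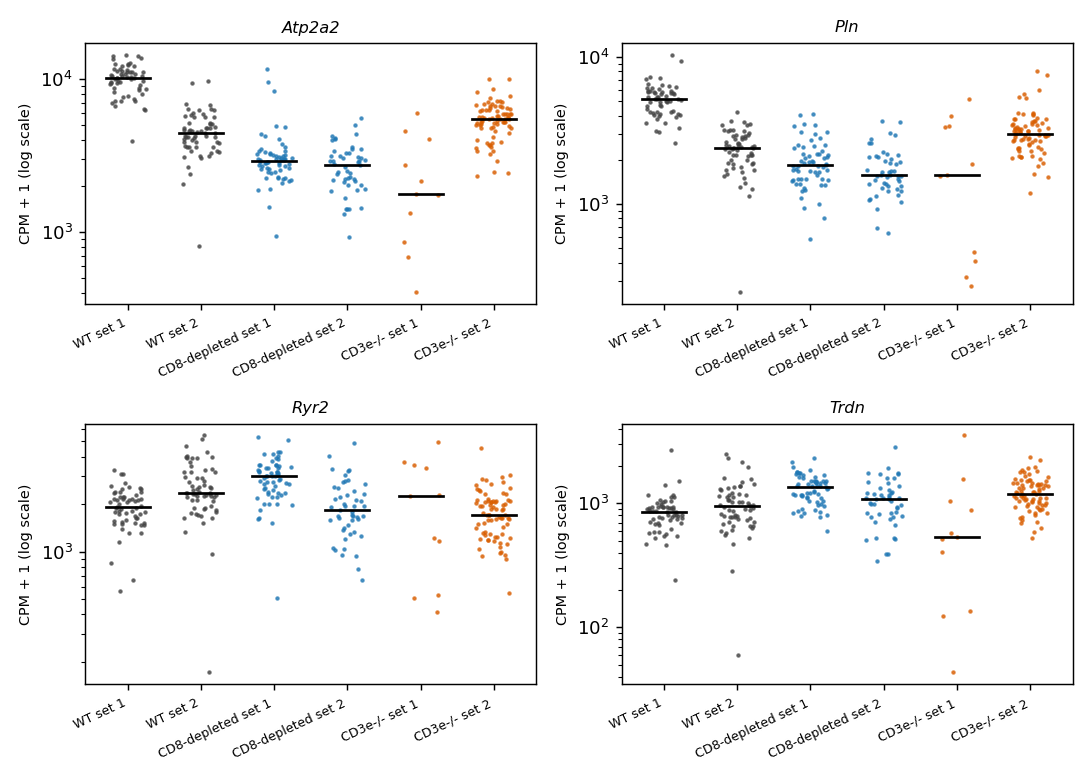
CPM + 1 (log scale) of Atp2a2, Pln, Ryr2 and Trdn in each of the 320 kept cells by set, with horizontal spread for display only and black lines for medians. Median Atp2a2 was ordered WT set 1 (10213), CD3e-/- set 2 (5524), WT set 2 (4447), CD8-depleted set 1 (2899), CD8-depleted set 2 (2740) and CD3e-/- set 1 (1775), while median Ryr2 stayed between 1711 and 3003.

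At the cell surface, the L-type channel and the sodium-calcium exchanger varied between sets of a group as much as between groups. Cacna1c (chromosome 6, 118587240 to 119196890, minus strand) encodes the pore of the L-type calcium channel. It was at 148 and 82.2 CPM in WT, 107 and 76.97 in CD8-depleted, and 195 and 115 in CD3e-/- sets. Slc8a1 (chromosome 17, 81373105 to 81738377, minus strand) encodes the exchanger NCX1, which removes calcium from the cell. It was at 335 and 168 CPM in WT, 172 and 229 in CD8-depleted, and 390 and 251 in CD3e-/- sets. Camk2d (chromosome 3, 126596302 to 126846326, plus strand) encodes the delta subunit of calcium/calmodulin-dependent kinase II, which phosphorylates phospholamban and the ryanodine receptor. It was at 178 and 77.2 CPM in WT, 125 and 84.5 in CD8-depleted, and 299 and 154 in CD3e-/- sets. All 3 genes overlapped between WT and both other groups, with log2 differences from WT of -0.28 to 0.18 over 6 sets (adjusted p = 0.919 to 1, edgeR). The CD3e-/- sets lay above both CD8-depleted sets for each of them, yet the fitted differences, after TMM, were 0.01 to 0.38 (adjusted p = 0.961 to 0.999).

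Members also differed between sets of a group. Atp2a2, Pln and Camk2d were at least 2-fold higher in WT set 1 than in WT set 2 on the scale of CPM + 1, 3 of 10 members against 20.6% of all genes tested. Ryr2 and Trdn were at 0.841 and 0.958 times the level of WT set 2. Between the CD8-depleted sets 0 members differed 2-fold, where 10.1% of all genes were higher and 15.01% lower in set 1. Between the CD3e-/- sets Sln and Itpr2 were higher and Atp2a2, Casq2 and Trdn lower in set 1, 2 and 3 of 10 members beside 43.7% and 22.8% of all genes. The 53 cells with fewer than 3000 detected genes, left out above, held 61542 to 957148 nuclear counts per set. In them Atp2a2 was at 3518 and 3632 CPM in WT, 1139 and 1416 in CD8-depleted, and 2644 and 5037 in CD3e-/- sets. Pln overlapped there, at 4430 and 1960, 1079 and 2159, and 2970 and 4079 CPM. Itpr2 was at 63.8 and 12.5, 17.8 and 0, and 37.3 and 16.2 CPM, from 0 to 24 counts per set. Its higher level outside WT in the kept cells was thus not seen in these few reads.

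Variation from cell to cell differed between members. Every kept cell held reads of Atp2a2, Pln, Ryr2, Casq2 and Trdn, and reads of Slc8a1, Cacna1c and Camk2d were found in 81.8% to 100% of cells of each set. The coefficient of variation of CPM over cells, leaving out the 11 cells of CD3e-/- set 1, was 0.217 to 0.523 for Atp2a2, 0.263 to 0.385 for Pln, 0.279 to 0.427 for Ryr2 and 0.271 to 0.442 for Trdn. It was 0.354 to 0.642 for Casq2 and 0.547 to 0.891 for Slc8a1, against 0.727 to 1.498 for Cacna1c and 0.761 to 1.10 for Camk2d. It was 1.45 to 2.63 for Itpr2. Across cells within a set, members were related weakly: over 28 pairs of 8 genes the mean Spearman coefficient of 5 sets ran from -0.08 to 0.24 with a median of 0.10, and 6 pairs were above 0 in every set. The highest means were those of Atp2a2 with Slc8a1 (0.24) and of Ryr2 with Trdn (0.24, from 0.10 to 0.47 over sets). Atp2a2 with Pln had a mean of 0.22 and ran from -0.10 to 0.38. Cells differed in depth, and the CPM of all genes in a cell share the total of that cell, so these coefficients are descriptions.

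Among 3120 genes read in at least 50% of cells of each of the 5 larger sets (309 cells), the gene most like Atp2a2 was Lpl, which encodes lipoprotein lipase, with a mean Spearman coefficient of 0.51 (0.42 to 0.59 over sets). The next, Rcan2 and Cfl2, were at 0.29 each. Ryr2 was most like the long sarcomere transcript Ttn (0.61, from 0.40 to 0.71), followed by the myosin gene Myh6 (0.52) and the troponin gene Tnnt2 (0.44). Trdn shared its leading genes Ttn (0.35) and Myh6 (0.32) with Ryr2, followed by Ktn1 (0.31). Pln was most like Fth1, Tpt1 and Mlip (0.27, 0.26 and 0.23), and Casq2 most like Fuca2 (0.38), Smpx (0.27) and Lpl (0.27). For Slc8a1 the leading genes were Lpl, BC034090 and Magt1 (0.31, 0.28 and 0.28), for Cacna1c they included Vegfa and Ttn (0.27 and 0.25), and for Camk2d they were Slc16a1, Fem1a and Lrp6 (0.25, 0.25 and 0.22). Itpr2 and Sln, mostly at 0 in single cells, reached 0.26 with Luc7l2 and 0.20 with Qk. The median coefficient over all 3120 genes lay between -0.0036 and 0.0468 for every member.

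Beyond the 10 genes, 91 other genes of calcium handling were listed in 5 groups by function, of which 89 were in the table and 82 were tested over 6 sets and 86 over 5. None passed the edgeR test in any comparison, over 6 or 5 sets. In CD8-depleted against WT cells 12 of 86 had an unadjusted p under 0.05 over 5 sets, beside the 9.94% of all genes. Of all 13374 genes tested in that fit, 6522 were higher and 6852 lower. The release and store group, which holds the junctophilins, the triadin and ryanodine receptor partners and calmodulin, had 11 of 24 genes higher and 13 lower, with a median log2 difference of -0.05 against -0.02 over all genes. Its smallest p-values were those of Casq1, the skeletal calsequestrin, at 2.52 (adjusted p = 0.268, 43.04 CPM in CD8-depleted set 1 but 2.01 in set 2) and Tmem38b, a channel that balances charge across the store membrane, at -1.91 (adjusted p = 0.415). The uptake group, with other calcium pumps and micropeptide regulators, had 0 of 7 higher and 7 lower (median -0.74), led by the phosphatase inhibitor gene Ppp1r1a at -3.44 (adjusted p = 0.519). That gene was at 4.18 and 2.19 CPM in WT and 0.523 and 0 in CD8-depleted sets.

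Of the kinase, phosphatase and anchor group, 7 of 25 genes were higher and 18 lower in CD8-depleted than in WT cells over 5 sets (median -0.52). Over all 13374 genes, 6522 were higher and 6852 lower (median -0.02). In the group 7 of 25 had an unadjusted p under 0.05 (edgeR), beside 9.94% of all genes. The lowest p was that of Ppp1cb, a catalytic subunit of the phosphatase that dephosphorylates phospholamban, at 316 and 113 CPM in WT and 78.6 and 65.9995 in CD8-depleted sets (-1.51, adjusted p = 0.103, edgeR). Pde4d, a cyclic AMP phosphodiesterase, had the lowest p among the higher genes at 0.67 (adjusted p = 0.627). Mitochondrial calcium uptake genes were lower in 9 of 11 cases (median -0.47), led by the outer membrane channel Vdac2 at 644 and 549 CPM in WT and 359 and 182 in CD8-depleted sets (-1.14, adjusted p = 0.231), while the uniporter regulator Micu2 differed by 0.15 (adjusted p = 0.926). Surface entry and exit genes were 10 higher and 9 lower of 19 (median 0.33), with Atp2b4, a calcium pump of the surface membrane, at 1.91 (adjusted p = 0.516) and the channel subunit gene Cacnb2 at -0.56 (adjusted p = 0.689).

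For CD3e-/- against WT, 4 of 82 genes had an unadjusted p under 0.05 over 6 sets (edgeR), beside 1071 of all 12936 genes. Over 5 sets, the medians of the 5 groups lay between -0.39 and 0.11, beside -0.06 for all genes. The largest named differences were those of Cacna1h, a T-type channel gene (3.45, adjusted p = 1, 0.675 and 0.0487 CPM in WT and 4.28 in CD3e-/- set 2), and Slc8a2, a further exchanger gene (-3.27, adjusted p = 1), both near the detection limit. Among genes of higher level, Camk2a was at 75.9 and 71.2 CPM in WT and 34.7 and 41.2 in CD3e-/- sets (-1.04, unadjusted p = 0.0602, adjusted p = 1), and Asph, which encodes junctate and junctin, was at 200 and 109 CPM in WT and 341 and 257 in CD3e-/- sets (0.58, adjusted p = 1). Against CD8-depleted cells, 19 of 25 kinase, phosphatase and anchor genes lay higher in CD3e-/- set 2 (median 0.32). Over all 13374 genes, 6627 lay higher and 6747 lower (median -0.01). Ppp1cb was at 189 CPM in that set (1.20), and Jph2, which tethers the store to the surface membrane, differed by -0.86.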

How the data were processed

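The authors' submitted processing notes name fastp 0.21.0 for trimming, STAR 2.7.5c for alignment to mm10 and featureCounts for counting, and the deposited values are raw read counts of 21872 genes in 375 single cells with exon coordinates and lengths. The 10 genes, the lists and most tests were chosen with earlier results of these data known. Cells with fewer than 3000 detected genes (53) and 1 pair of identical columns (2 cells) were left out. The 13 mitochondrially encoded genes were left out of totals. Kept cells had 16906 to 2059675 nuclear counts. Counts were summed per numbered set and tested over 6 sets together by the quasi-likelihood method of edgeR 4.0.16, after its default expression filter and TMM scaling, with Benjamini-Hochberg adjustment over all genes and a threshold of 0.05. The fit without CD3e-/- set 1 is given beside it. SE was taken as the difference divided by the square root of F. Alternatives used DESeq2 1.42.0, limma 3.58.1 (limma-trend on mean log2(CPM + 1)), no TMM factors, no filter, all cells, cells thinned to 50000 counts, each gene's highest cell left out, a replicate block and each set left out. Ratios were compared by exact permutation tests. Named genes of the lists were those with the smallest p in each direction, as none passed. Genes most like a member had the highest mean within-set Spearman coefficient over sets of at least 20 cells. One such gene is not reported here. The tests were also run on simulated data, but no outcome is reported here. That run does not show how the tests perform at the spread between these sets. R 4.3.3, Python 3.11.15, SciPy 1.17.1, pandas 2.3.3 and Matplotlib 3.10.9 were used. Promoters came from RefSeq.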

Additional observations from a re-analysis of the deposited data

How the results depend on the processing

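Precision was limited by 2 sets per group and by a CD3e-/- set of 11 cells and 604652 nuclear counts. The edgeR fit called 0 genes and 0 members in each comparison. For CD8-depleted against WT, DESeq2 called 8 genes, no low-count filter 12, and leaving out a set 0 to 47 (members 0 to 1). For CD3e-/- against WT these counts were 611, 303 and 0 to 4588 (members 0 to 6, and 1 with DESeq2), and for CD3e-/- against CD8-depleted 15, 106 and 0 to 3472 (members 0 to 4). The upper ends came from leaving out CD3e-/- set 2, so that set 1 alone stood for its group. Then Itpr2 passed against WT in both groups, and Atp2a2, Pln, Ryr2, Casq2 and Trdn were called lower in CD3e-/- than in WT. Chosen after seeing the data were further fits without CD3e-/- set 1. For CD8-depleted against WT they called 157 genes with DESeq2 (1 member), 6 with thinned cells, 29 without each gene's highest cell (1 member) and 2 in the 4 sets of these groups alone. For CD3e-/- against WT the first 3 called 13, 3 and 3, and against CD8-depleted 10, 0 and 2. All called members in these counts other than with set 1 alone were Itpr2. The replicate block called 0 genes and 0 members and changed no call. The set numbers are not known to pair the samples. Differences of set 2 from set 1 correlated at -0.02, -0.01 and -0.17 between groups, which with 2 sets per group cannot decide it. Cells weighted alike, all cells, thinned cells and plain library sizes over 6 sets called 0 genes.

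In CD3e-/- against WT, Cacna1c turned to 0.0945 with all cells, 0.32 with cells weighted alike, 0.42 without TMM factors and 0.13 without each gene's highest cell. Slc8a1 turned to 0.0640, 0.47 and 0.35 under the first 3 of these, and Camk2d to -0.00754 with cells weighted alike. Leaving out a set gave ranges of -1.85 to 0.20 for Trdn, and -0.24 to 0.54 for Camk2d. In CD8-depleted against WT, leaving out a set gave -0.29 to 0.43 for Ryr2, -0.57 to 0.0615 for Slc8a1 and -0.59 to 0.26 for Camk2d. Between CD3e-/- and CD8-depleted, Atp2a2 turned to -0.12 under the replicate block, -0.0207 with thinned cells and -0.0919 without each gene's highest cell. Pln turned to 0.19 with cells weighted alike, 0.37 without TMM factors, and over 5 sets to 0.52 (DESeq2), 0.80 (cells weighted alike), 0.48 (thinned) and 0.35 (without the highest cell). Sln turned to 0.0731 with cells weighted alike and 1.31 with thinned cells, and Itpr2 to 0.34 with cells weighted alike, 0.71 without TMM factors and 0.23 without the highest cell. Without a filter Cacna1c turned to -0.0144 and Slc8a1 to -0.0491, and Slc8a1 to -0.0925 with thinned cells. Leaving out a set gave -1.77 to 0.78 for Atp2a2, -1.37 to 0.57 for Pln, -1.07 to 0.28 for Itpr2, -0.25 to 0.33 for Cacna1c and -0.23 to 0.14 for Slc8a1. The cause was not tested. Ratio differences without a set ran from -0.0518 to 0.561 (Pln to Atp2a2, CD3e-/- minus WT), from -0.187 to 0.426 (CD3e-/- minus CD8-depleted) and, for Sln to Pln, from -0.00256 to 0.00339, or -0.00125 with all cells.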
